A study of Mus musculus with 12 samples.

Results

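The basal keratins Krt5, Krt14, Krt15 and Krt17 and the basal regulators Trp63, Snai2 and Id4 are 7 genes that mark or control the outer, basal layer of the mammary epithelium. They were taken by name, and all 7 were found among the 38924 genes counted. The libraries hold RNA of sorted cells from C57BL/6 mice that carry the ROSAmTmG reporter together with a recombinase, either Ucp1-iCre or Myf5-Cre. Recombination switches the reporter to membrane GFP, so GFP stands for a cell, or an ancestor of it, that has had active recombinase, not for present expression of Ucp1 or Myf5. The groups are GFP-positive myoepithelial cells of the Ucp1 line, GFP-negative myoepithelial cells of the Ucp1 line, GFP-positive myoepithelial cells of the Myf5 line, GFP-negative myoepithelial cells of the Myf5 line, and GFP-positive brown adipocytes of the Ucp1 line and of the Myf5 line, with 2 libraries in each. Myoepithelial cells were sorted as Lin-, CD24+ and CD29hi at lactation day 10, and brown adipocytes came from virgin females at 8 weeks of age, so tissue, age and reproductive state cannot be told apart between them. The GFP-negative cells carry the same recombinase and reporter as their GFP-positive partners.

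Basal cells of the mammary gland include the contractile myoepithelial cells that squeeze milk out of the alveoli. Their cytoskeleton is built from keratin pairs, a type II chain such as Krt5 with a type I chain such as Krt14, Krt15 or Krt17. Trp63 encodes p63, the p53-family transcription factor that maintains basal identity and activates keratin and adhesion genes in stratified and glandular epithelia. Snai2 encodes Slug, a zinc-finger repressor of the Snail family that binds E-box sequences and is high in mammary basal cells. Id4 encodes a helix-loop-helix protein without a DNA-binding region, which holds other helix-loop-helix factors off DNA and is known from mammary basal and stem cells. Brown adipocytes are mesenchymal fat cells and have no keratin network of this kind.

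Library totals ran from 11027738 to 32956480 counts. The GFP-positive Ucp1 myoepithelial libraries stood apart, with 10909 and 10560 genes at 1 count or more, against 13761 to 19794 genes in the other 6 myoepithelial libraries. In that group, 1527 of the 8829 genes that reached 10 CPM (counts scaled to a common library size) in 1 library had 0 counts in the other (17.3%), and this share was 0.0110% to 1.004% in the other 5 groups. Snai2 and Trp63 are among those genes. All 7 contractile markers of myoepithelial cells (Acta2, Myh11, Cnn1, Tagln, Mylk, Oxtr and Myl9) were detected in all 12 libraries. Their summed level was 1303 and 3404 CPM in GFP-positive Ucp1 cells, 10834 and 12773 CPM in GFP-negative Ucp1 cells, 4023 and 5914 CPM in GFP-positive Myf5 cells and 8789 and 17199 CPM in GFP-negative Myf5 cells. In brown adipocytes it was 394 and 236 CPM in the Ucp1 line and 33.7 and 35.0 CPM in the Myf5 line. The 7 luminal markers (Krt8, Krt18, Krt19, Elf5, Epcam, Csn2 and Wap) were also present in every myoepithelial sort, at 10982 and 13420 CPM in GFP-positive Ucp1 cells, 61378 and 67458 CPM in GFP-negative Ucp1 cells, 20663 and 9147 CPM in GFP-positive Myf5 cells and 60058 and 31669 CPM in GFP-negative Myf5 cells. The 6 luminal keratins (Krt7, Krt8, Krt18, Krt19, Krt20 and Krt23) summed to only 38.2 to 600 CPM in these libraries. Most of each marker sum thus came from Elf5, Epcam and the milk protein genes Csn2 and Wap. No read of the Ucp1 gene (0 counts) was found in any GFP-positive myoepithelial library, while each GFP-negative myoepithelial library held 1 count or more of it.

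Krt5 (ENSMUSG00000061527) lies on the minus strand at chr15:101707070-101712898 in mm10. Krt15 (ENSMUSG00000054146, chr11:100131758-100135928), Krt14 (ENSMUSG00000045545, chr11:100203162-100207548) and Krt17 (ENSMUSG00000035557, chr11:100256217-100261029) share the type I keratin cluster, also on the minus strand. Trp63 (ENSMUSG00000022510, chr16:25683763-25892102), Snai2 (ENSMUSG00000022676, chr16:14705852-14709385) and Id4 (ENSMUSG00000021379, chr13:48261228-48266026) lie on the plus strand. The type I keratins are close relatives, which bears on how reads were divided between them. The coding sequences of Krt14 and Krt17 share a run of 71 identical bases, those of Krt15 and Krt17 a run of 50 and those of Krt14 and Krt16 a run of 134. The stretch around the Krt14 and Krt17 run is printed here as 120 coding bases, joined across an intron, from GENCODE M21 transcripts on the minus strand of chromosome 11. Capitals mark the bases that differ from Krt14, 13 in Krt17 and 36 in Krt15.
Krt14, chr11:100204003-100204209: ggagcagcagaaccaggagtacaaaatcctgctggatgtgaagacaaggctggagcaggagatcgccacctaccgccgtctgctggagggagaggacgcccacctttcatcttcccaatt
Krt17, chr11:100257328-100257534: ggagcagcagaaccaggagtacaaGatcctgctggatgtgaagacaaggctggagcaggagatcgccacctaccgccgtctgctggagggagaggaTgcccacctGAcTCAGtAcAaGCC
Krt15, chr11:100132606-100133092: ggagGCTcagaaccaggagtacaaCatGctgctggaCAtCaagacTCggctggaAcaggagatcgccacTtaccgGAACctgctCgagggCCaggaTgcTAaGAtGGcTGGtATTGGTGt

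Of all 31-base words in the transcripts of a gene, 28.2% for Krt14, 15.8% for Krt17, 12.8% for Krt5, 3.74% for Krt15, 2.92% for Snai2, 0.0524% for Id4 and 0% for Trp63 also occurred in another gene. For Krt14 most of these lay in Krt16, for Krt17 in Krt14 and for Krt5 in Krt6a. Levels of Krt14, Krt17 and Krt5 are therefore uncertain to the extent that shared reads were dropped or split. Krt16 reached at most 1.09 CPM and Krt6a at most 0.214 CPM in any library. The exons of Id4 overlap those of A330033J07Rik, an antisense transcript. This kit does not mark strand, so reads of Id4 and of that transcript cannot be told apart where they overlap. A330033J07Rik was credited with 584 and 123 counts in GFP-positive Ucp1 cells, against 48 and 26 counts in GFP-negative Ucp1 cells, and with 0 and 39 counts in GFP-positive Myf5 cells, against 0 and 7 counts in GFP-negative Myf5 cells. Id4 itself had 4907 and 1699 counts in GFP-positive Ucp1 cells, against 947 and 550 counts in GFP-negative Ucp1 cells.

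The start regions of Krt5 and Id4 are shown because the first lay lower and the second higher in GFP-positive Ucp1 cells, and because both have a usable window in the table. Both come from RefSeq (GRCm38.p6), 250 bases before and 50 bases after the RefSeq start, written in the direction of transcription. Capitals mark in Krt5 a CAGGTG E-box, the sequence that Snail-family factors bind, and a p53-family half-site.
Krt5, chr15:101712856-101713155, minus strand: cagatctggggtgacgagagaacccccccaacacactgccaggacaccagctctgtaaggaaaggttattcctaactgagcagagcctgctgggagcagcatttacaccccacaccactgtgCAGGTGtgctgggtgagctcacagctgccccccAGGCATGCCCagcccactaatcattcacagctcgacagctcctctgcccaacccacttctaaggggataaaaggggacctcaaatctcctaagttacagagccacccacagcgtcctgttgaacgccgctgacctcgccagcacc
Id4, chr13:48260866-48261165, plus strand: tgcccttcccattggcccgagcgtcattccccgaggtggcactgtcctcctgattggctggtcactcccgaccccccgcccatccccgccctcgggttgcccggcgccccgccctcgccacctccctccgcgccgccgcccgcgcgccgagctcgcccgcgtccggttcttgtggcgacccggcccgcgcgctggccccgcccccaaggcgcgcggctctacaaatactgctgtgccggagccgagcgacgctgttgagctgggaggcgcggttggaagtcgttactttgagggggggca

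The CAGGTG of Krt5 begins 128 bases before the start and the half-site, AGGCATGCCC, 95 bases before it, with a CAGCTG between them at 107 bases. In the Id4 window neither the p53-family half-site nor any E-box (CANNTG) was found on either strand. Among 27025 mouse promoters of the same length, 8.37% held the half-site, 20.03% CAGGTG, 16.1% CAGCTG and 72.1% any CANNTG, a pattern that includes both E-boxes. These matches are descriptions of the letters in the windows. The RefSeq table gave no window that could be used for the other 5 genes: for Krt14 it lies 1518 bases from the annotated gene start.

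In GFP-negative cells of both lines the keratins formed the high end of the 7 genes and the regulators the low end. Levels between genes are compared per kilobase of exon (RPKM, the CPM value over exon length). In GFP-negative Ucp1 cells, Krt14 averaged 345 ± 15.6 RPKM, Krt17 286 ± 7.15, Krt5 149 ± 10.5 and Krt15 118 ± 38.9 (SD, n = 2). Snai2 averaged 27.3 ± 6.62 RPKM there, Id4 5.88 ± 2.14 and Trp63 2.76 ± 1.03 (SD, n = 2). The libraries of Krt5 and Krt15 overlapped in this order, while those of Id4 lay above those of Trp63. In GFP-negative Myf5 cells the order was different: Krt17 led with 726 ± 128 RPKM, and Krt15 with 404 ± 129, Krt14 with 376 ± 136 and Krt5 with 190 ± 154 RPKM followed (SD, n = 2). Krt14 overlapped with both of the others, and Krt15 lay above Krt5 without overlap. Snai2 stood at 36.6 ± 0.832 RPKM, and Trp63 at 5.51 ± 3.25 and Id4 at 4.69 ± 5.40 RPKM could not be ordered (SD, n = 2). In GFP-positive cells of both lines, Id4 took a higher place, at 28.8 ± 25.6 RPKM in the Ucp1 line and 17.6 ± 20.6 RPKM in the Myf5 line, and Snai2 stood at 18.6 ± 26.3 RPKM in the Ucp1 line and 14.2 ± 5.81 RPKM in the Myf5 line (SD, n = 2). The mean of Id4 thus lay above that of Krt15 in GFP-positive Ucp1 cells (24.6 ± 20.3 RPKM; SD, n = 2). In GFP-positive Myf5 cells it lay above those of Krt14 (16.6 ± 20.3 RPKM) and Krt5 (9.47 ± 6.94 RPKM; SD, n = 2), with overlapping libraries in each case.

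**Figure D1:**
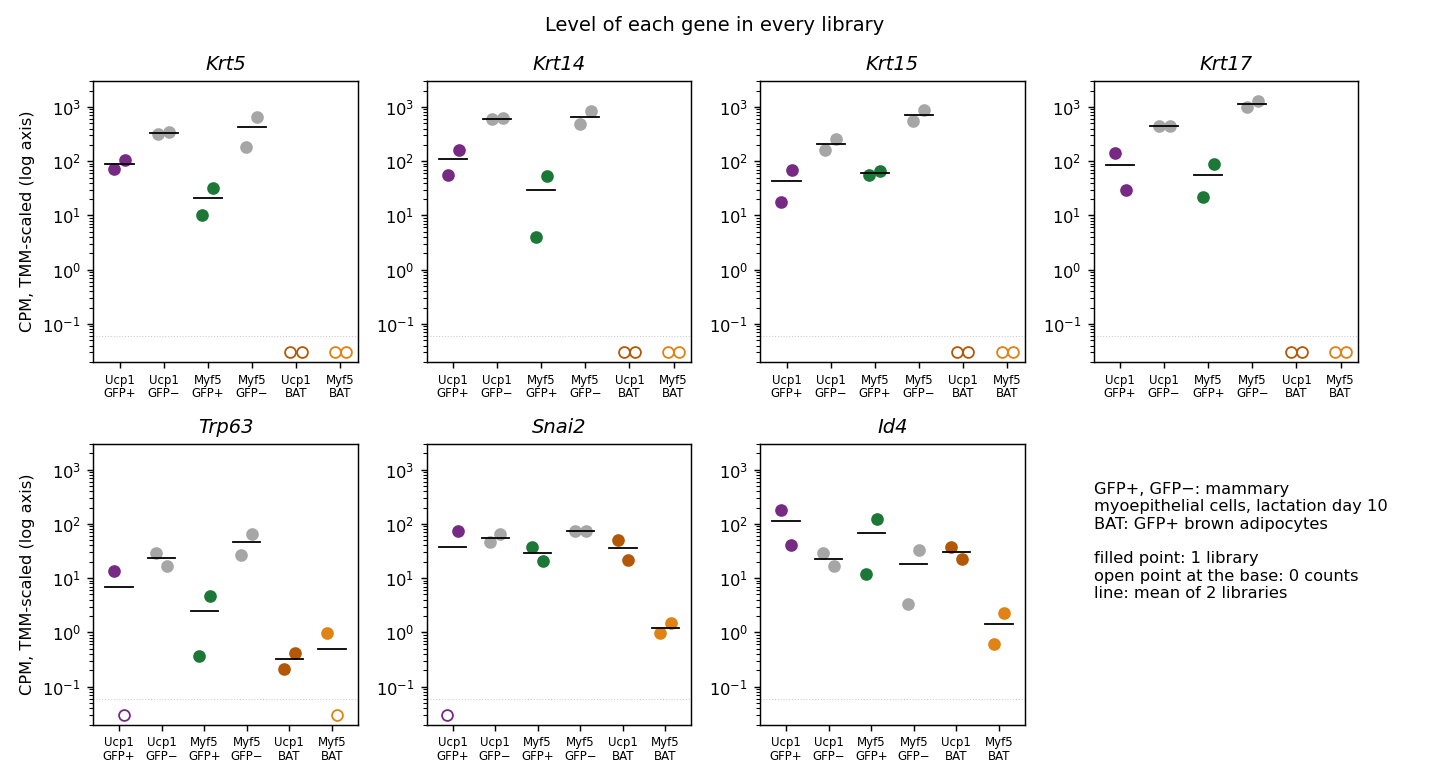
Level of each gene in CPM (log axis, scaled by TMM factors) in the 12 libraries; each filled point is 1 library, an open point at the base is a library with 0 counts and the line is the mean of 2 libraries. The 4 keratins lie lower in GFP-positive than in GFP-negative cells of both lines and at 0 in all brown adipocytes (BAT), while Snai2 and Id4 reach 21.6 to 49.6 CPM in brown adipocytes of the Ucp1 line.

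In the Ucp1 line, every basal keratin lay lower in both GFP-positive libraries than in both GFP-negative libraries, but none passed the test over all genes. Krt5, the type II partner, was at 71.1 and 107 CPM in GFP-positive cells, against 312 and 344 CPM in GFP-negative cells. Krt14, its usual type I partner, was at 56.1 and 162 CPM in GFP-positive cells, against 588 and 626 CPM in GFP-negative cells. Both differences exceed the spread within either group. Krt15, a type I keratin of basal layers and hair follicles, was at 18.1 and 68.9 CPM in GFP-positive cells, against 159 and 256 CPM in GFP-negative cells. Krt17, a type I keratin of appendages and of injured epithelium, was at 140 and 29.6 CPM in GFP-positive cells, against 452 and 436 CPM in GFP-negative cells. The library that was high for Krt17 was the low one for the other 3 keratins, so the GFP-positive pair disagreed on which keratin was least reduced. As log2 fold changes, GFP-positive over GFP-negative, edgeR's quasi-likelihood test gave -1.88 for Krt5 (SE 0.770, adjusted p = 0.145), -2.48 for Krt14 (SE 1.09, adjusted p = 0.173), -2.26 for Krt15 (SE 0.688, adjusted p = 0.0695) and -2.39 for Krt17 (SE 0.882, adjusted p = 0.114). The median of all genes tested was -0.69.

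Of the regulators in the Ucp1 line, Trp63 was at 13.6 and 0 CPM in GFP-positive cells, against 29.3 and 17.1 CPM in GFP-negative cells. Snai2 was at 0 and 75.3 CPM in GFP-positive cells, against 45.8 and 64.7 CPM in GFP-negative cells. Each of these genes was thus empty in 1 GFP-positive library and well above background in the other: 370 counts of Trp63 stood in replicate 1 and 3100 counts of Snai2 in replicate 2. Id4 went the other way, at 180 and 41.2 CPM in GFP-positive cells, against 28.5 and 16.8 CPM in GFP-negative cells. Both GFP-positive libraries lay above both GFP-negative libraries for Id4, below them for Trp63 and on either side of them for Snai2. By edgeR's test, Trp63 had a log2 fold change of -1.77 (SE 2.19, adjusted p = 0.666), Snai2 one of -0.55 (SE 1.80, adjusted p = 0.907; 0.43 without GFP-positive replicate 1) and Id4 one of 2.29 (SE 1.33, adjusted p = 0.286).

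Over the whole table, 14.3% of the 16953 genes tested were called at an adjusted p under 0.05 for the Ucp1 label, only 0.277% being higher in GFP-positive cells, and 0 of the 7 genes were among them. The 3 members Krt5, Krt15 and Krt17, had an unadjusted p under 0.05, as had 30.9% of all genes. The 5 members that lay lower without overlap have to be read against 48.1% of all genes that did so, and Id4 against 11.8% that lay higher. Leaving out GFP-positive replicate 1 gave 2 members called (Krt17 and Trp63, both lower), and leaving out GFP-positive replicate 2 gave 2 others (Krt15 and Snai2, both lower). Each of these fits sets 1 library against 2 and assumes that it varies like the other groups. The calls of Trp63 and Snai2 rest on the single library with 0 counts. DESeq2 called 1 member lower (Krt15) and limma-voom all 4 keratins lower.

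In the Myf5 line, too, every basal keratin lay lower in both GFP-positive libraries, and none passed the test over all genes. Krt5 was at 10.0 and 31.6 CPM in GFP-positive cells, against 179 and 657 CPM in GFP-negative cells. Krt14 was at 3.99 and 54.4 CPM in GFP-positive cells, against 493 and 831 CPM in GFP-negative cells. For both genes the GFP-positive replicate 1 was the lowest myoepithelial library of the series. Krt15 was at 54.6 and 65.0 CPM in GFP-positive cells, against 553 and 874 CPM in GFP-negative cells, with little spread in the GFP-positive pair. Krt17 was at 21.5 and 88.5 CPM in GFP-positive cells, against 986 and 1267 CPM in GFP-negative cells. In no keratin did the groups overlap. The log2 fold changes were -4.33 for Krt5 (SE 0.855, adjusted p = 0.253), -4.50 for Krt14 (SE 1.20, adjusted p = 0.326), -3.58 for Krt15 (SE 0.727, adjusted p = 0.253) and -4.36 for Krt17 (SE 0.962, adjusted p = 0.285) by edgeR's test, and the median of all genes was -0.06.

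Trp63 was at 0.374 and 4.65 CPM in GFP-positive Myf5 cells, against 27.0 and 65.5 CPM in GFP-negative Myf5 cells. Snai2 was at 36.9 and 20.3 CPM in GFP-positive cells, against 72.7 and 75.1 CPM in GFP-negative cells. Neither gene's groups overlapped. Id4 was at 11.7 and 124 CPM in GFP-positive cells, against 3.37 and 32.7 CPM in GFP-negative cells, with overlapping groups: replicate 1 was the low library in both. By edgeR's test, Trp63 had a log2 fold change of -4.19 (SE 2.42, adjusted p = 0.701), Snai2 one of -1.37 (SE 1.83, adjusted p = 1) and Id4 one of 1.91 (SE 1.31, adjusted p = 0.808). Taken by replicate number, Id4 was higher in GFP-positive cells both times, at 11.7 against 3.37 CPM and at 124 against 32.7 CPM. The labels do not state such a pairing, and the fits did not use it. In these unpaired fits its log2 value ran from -0.63 without GFP-positive replicate 2 to 4.33 without GFP-negative replicate 2. There, 1 library decides its sign.

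For the Myf5 label edgeR called 0 of 16953 genes (0%), the 7 included. At an unadjusted p under 0.05 it counted 1573 genes (9.28%), among them the 4 keratins. DESeq2 called 724 genes, among them the 4 keratins, and limma-voom 567, among them Krt14, Krt15 and Krt17, all lower in GFP-positive cells. Fitted without the GFP-positive Ucp1 libraries, the table gave calls for Krt15 and Krt17, both lower. Of all genes, 20.2% lay lower without overlap, as 6 of the 7 members did, and 14.5% lay higher. In bulk RNA, fewer basal cells among those sorted and less keratin RNA per cell cannot be told apart.

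The cells sorted as GFP-positive differed in other markers as well, and the part of these in the keratin values was not tested. The 7 fibroblast markers (Dcn, Lum, Col1a1, Col1a2, Col3a1, Pdgfra and Dpt) summed to 19213 and 11794 CPM in GFP-positive Myf5 cells, against 893 and 558 CPM in GFP-negative Myf5 cells. They summed to 823 and 192 CPM in GFP-positive Ucp1 cells, against 3633 and 2928 CPM in GFP-negative Ucp1 cells. Pdgfra and Dpt were at 0 in 1 GFP-positive Ucp1 library. The 5 pericyte markers (Rgs5, Pdgfrb, Cspg4, Notch3 and Kcnj8) summed to 877 and 661 CPM in GFP-positive Ucp1 cells, against 1330 and 1314 CPM in GFP-negative Ucp1 cells, and to 2667 and 2391 CPM in GFP-positive Myf5 cells, against 619 and 387 CPM in GFP-negative Myf5 cells. The 6 endothelial markers (Pecam1, Cdh5, Kdr, Emcn, Tek and Egfl7) summed to 3690 and 5338 CPM in GFP-positive Ucp1 cells, against 3705 and 3604 CPM in GFP-negative Ucp1 cells, and to 815 and 1077 CPM in GFP-positive Myf5 cells, against 3151 and 3357 CPM in GFP-negative Myf5 cells. The 6 immune markers (Ptprc, Cd74, Lyz2, Cd52, Tyrobp and Laptm5) lay lower without overlap in both lines, as the keratins did. They summed to 627 and 569 CPM in GFP-positive Ucp1 cells, against 1366 and 1277 CPM in GFP-negative Ucp1 cells, and to 446 and 634 CPM in GFP-positive Myf5 cells, against 1713 and 1348 CPM in GFP-negative Myf5 cells. Ptprc was at 0 in both GFP-positive Ucp1 libraries and Cd52 in 1.

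Pooling the lines, with the line as a covariate, set 4 GFP-positive against 4 GFP-negative libraries. The 4 keratins and Trp63 were lower in every GFP-positive library than in any GFP-negative library, as were 7.79% of the 15685 genes tested, while 0.695% were higher in every GFP-positive library. Krt15 had the smallest SE, with a log2 fold change of -2.88 (SE 0.558, adjusted p = 0.348 by edgeR), and averaged 51.6 ± 23.2 CPM with the label and 461 ± 322 CPM without it (SD, n = 4 each). Id4 averaged 89.3 ± 77.1 CPM with the label and 20.4 ± 13.2 CPM without it (SD, n = 4 each), a log2 fold change of 2.14 (SE 0.934, adjusted p = 0.668 by edgeR). No gene was called in this fit (0%), and 1155 genes (7.36%) had an unadjusted p under 0.05. The same contrast taken from the fit of all 12 libraries called all 4 keratins lower, with adjusted p from 0.0118 for Krt15 to 0.0339 for Krt14 by edgeR, DESeq2 called the same 4, and limma-voom called Krt15 and Krt17.

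**Figure D2:**
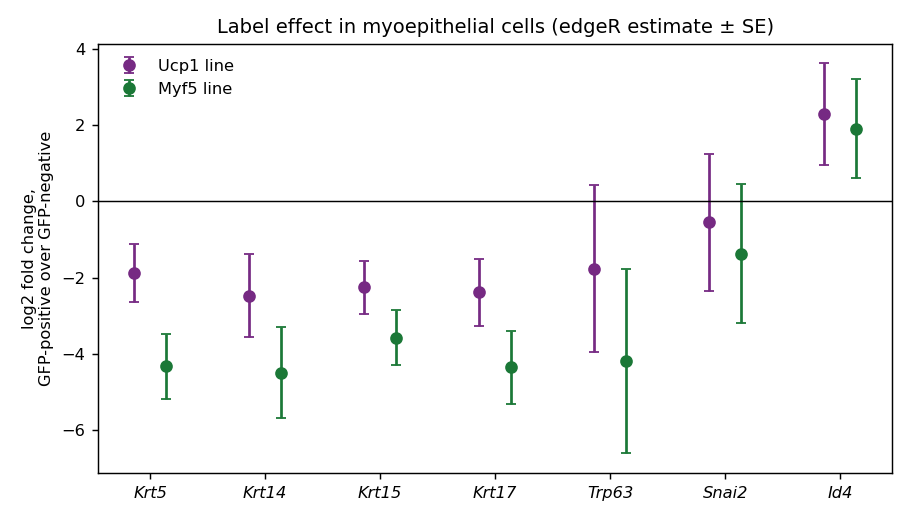
Log2 fold change of each gene between GFP-positive and GFP-negative myoepithelial cells (edgeR estimate, bars are ± 1 SE, 2 libraries per group) in the Ucp1 line and the Myf5 line. The 4 keratins lie between -1.88 and -2.48 in the Ucp1 line and between -3.58 and -4.50 in the Myf5 line, Id4 lies above 0 in both with all libraries (in the Myf5 line at -0.63 without GFP-positive replicate 2), and the bars of Trp63 and Snai2 are the widest.

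Whether the label effect differed between the lines was tested as an interaction. All 7 differences, Ucp1 minus Myf5 effect, were above 0, from 0.38 for Id4 (SE 1.79) to 2.45 for Krt5 (SE 1.07). Over all genes 37.4% of the differences were above 0, and the median was -0.58. The difference of Krt5 had an adjusted p of 0.217 by edgeR and those of the other 6 genes lay between 0.401 and 1, so 0 members passed. Of all genes, 0.283% were called with a difference above 0 and 10.7% with one below 0. Without GFP-positive Myf5 replicate 2, Krt14 was called, at 4.89. Without GFP-positive Ucp1 replicate 2, Snai2 was called in the other direction, because 0 counts were then left in that group. The sign was not stable for 2 more genes: the difference of Trp63 was -7.80 without GFP-positive Ucp1 replicate 1, and that of Id4 turned in 4 of 15 alternatives, to -2.05 without GFP-negative Myf5 replicate 2.

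The keratin transcripts were also summed, to set their amount beside their make-up. Krt5, Krt14, Krt15 and Krt17 together came to 165 and 199 RPKM in GFP-positive Ucp1 cells, against 858 and 940 RPKM in GFP-negative Ucp1 cells. In the Myf5 line they came to 51.6 and 139 RPKM in GFP-positive cells, against 1310 and 2083 RPKM in GFP-negative cells. The share of these 4 in the RPKM of 54 keratin genes was 78.1% and 62.96% in GFP-positive Ucp1 cells, against 73.9% and 76.7% in GFP-negative Ucp1 cells. It was 58.8% and 79.8% in GFP-positive Myf5 cells, against 82.7% and 86.6% in GFP-negative Myf5 cells. The shares overlapped between the groups of the Ucp1 line and did not in the Myf5 line. The luminal keratins Krt7, Krt8, Krt18 and Krt19, which line the milk-producing inner layer, were lower in GFP-positive cells too: they came to 43.9 and 104 RPKM in GFP-positive Ucp1 cells, against 281 and 259 RPKM in GFP-negative Ucp1 cells, and to 22.0 and 31.01 RPKM in GFP-positive Myf5 cells, against 247 and 292 RPKM in GFP-negative Myf5 cells. The ratio of basal to luminal keratin was 3.75 and 1.90 in GFP-positive Ucp1 cells, against 3.05 and 3.63 in GFP-negative Ucp1 cells. In the Myf5 line it was 2.34 and 4.49 in GFP-positive cells, against 5.31 and 7.15 in GFP-negative cells.

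Within the basal keratins, the 3 type I chains outweighed their type II partner Krt5 in every myoepithelial library. Their summed RPKM was 4.09 and 3.08 times that of Krt5 in GFP-positive Ucp1 cells, against 5.05 and 4.995 times in GFP-negative Ucp1 cells. It was 10.3 and 8.69 times that of Krt5 in GFP-positive Myf5 cells, against 15.0 and 5.97 times in GFP-negative Myf5 cells. The leading keratin of a library was Krt17 or Krt14 in GFP-positive Ucp1 cells, Krt14 in both GFP-negative Ucp1 libraries, Krt15 or Krt17 in GFP-positive Myf5 cells and Krt17 in both GFP-negative Myf5 libraries. Krt15 made up 59.9% of the basal keratin RPKM in GFP-positive Myf5 replicate 1 and 6.21% in GFP-positive Ucp1 replicate 1, the highest and lowest shares of the 8 libraries.

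**Figure D3:**
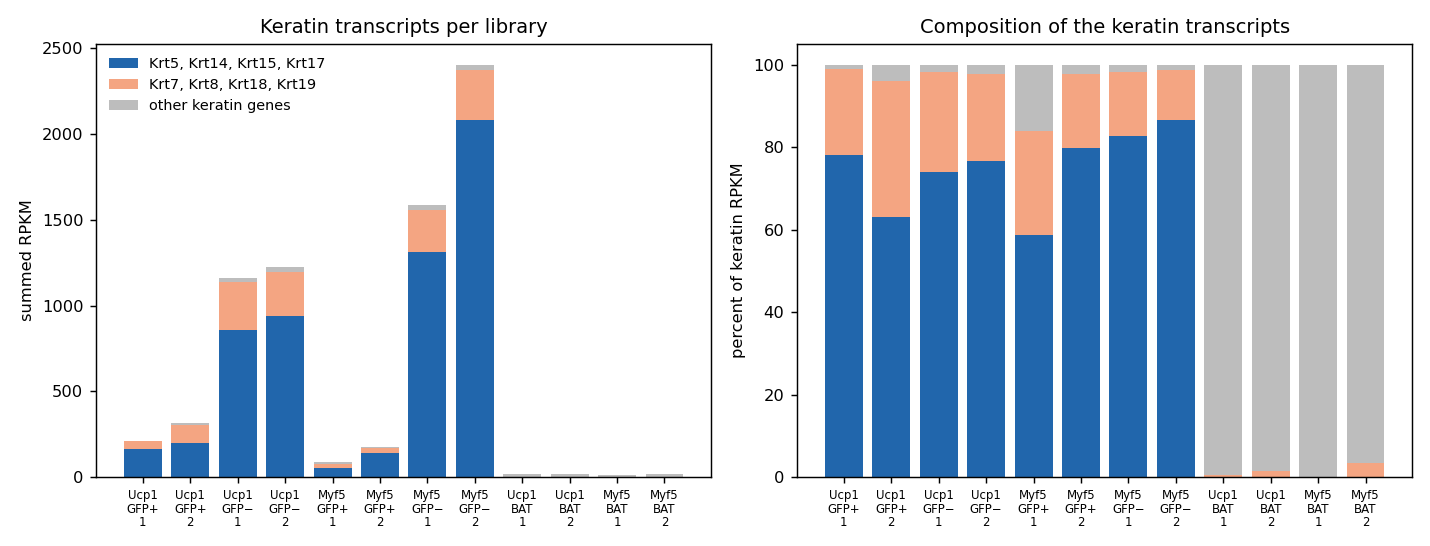
Left, summed RPKM of the basal keratins, of Krt7, Krt8, Krt18 and Krt19, and of the other keratin genes in each library; right, the same as a percent of all keratin RPKM. GFP-positive cells carry 87.7 to 316 RPKM of keratin, against 1160 to 2405 RPKM in GFP-negative cells, and the basal 4 hold 58.8% to 86.6% of it in all 8 myoepithelial libraries and 0% in brown adipocytes (BAT), whose totals are 10.6 to 17.6 RPKM.

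No basal keratin was detected in brown adipocytes: Krt5, Krt14, Krt15 and Krt17 stood at 0 counts in all 4 libraries. In these 4 genes the GFP-positive myoepithelial cells, though lower than their GFP-negative partners, therefore lay far above the brown adipocytes of the same line. With the floor set at 3 counts over both brown adipocyte libraries, Krt5 was at least 632-fold higher, Krt14 at least 774-fold, Krt15 at least 308-fold and Krt17 at least 601-fold higher in GFP-positive Ucp1 myoepithelial cells than in Ucp1 brown adipocytes. In the Myf5 line the bounds were at least 132-fold for Krt5, at least 186-fold for Krt14, at least 381-fold for Krt15 and at least 350-fold for Krt17. All 4 keratins were called higher in both lines by edgeR, with adjusted p of 0.00110 to 0.00403 in the Ucp1 line and 0.00150 to 0.0102 in the Myf5 line, where 5.34% and 10.9% of all genes were called higher in the same 2 comparisons. In the Myf5 line Krt14 was not called in 3 of 12 alternatives, among them those without either Myf5 brown adipocyte library. With only the 4 Ucp1 libraries in the fit, no member was called (adjusted p 0.0561 to 0.0574 for the 4 keratins by edgeR), nor was any other gene. Keratin transcripts of other kinds were scarce, and the highest single keratin in brown adipocytes was Krt10 in 3 libraries and Krt36 in 1.

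Of the 3 regulators, 1 was called in 1 of these 2 comparisons. Id4 was called higher in GFP-positive Myf5 myoepithelial cells than in Myf5 brown adipocytes, at 11.7 and 124 CPM against 0.610 and 2.29 CPM in brown adipocytes (log2 fold change 5.53, SE 1.55, adjusted p = 0.0360 by edgeR). That call was lost without GFP-positive replicate 2, where the log2 value was 2.99 and the adjusted p 0.167, without either brown adipocyte library (adjusted p 0.197 and 0.113), with limma-voom (0.0979), with a replicate block (0.0521) and with only the groups compared in the fit (0.0528), which makes 6 of 12 alternatives. Snai2 was at 36.9 and 20.3 CPM in GFP-positive Myf5 myoepithelial cells, against 0.977 and 1.47 CPM in Myf5 brown adipocytes, and did not pass (log2 fold change 4.54, SE 2.11, adjusted p = 0.157 by edgeR). In the Ucp1 line, Snai2 was at 0 and 75.3 CPM in GFP-positive myoepithelial cells, against 49.6 and 21.6 CPM in brown adipocytes, and the log2 fold change was 0.08 (SE 1.80, adjusted p = 1 by edgeR). Id4 was at 180 and 41.2 CPM in GFP-positive Ucp1 myoepithelial cells, against 38.1 and 22.8 CPM in Ucp1 brown adipocytes (log2 fold change 1.86, SE 1.31, adjusted p = 0.315 by edgeR). Trp63 passed in neither line (adjusted p = 0.220 in the Ucp1 line and 0.507 in the Myf5 line by edgeR), and brown adipocytes held 2 and 5 counts of it in the Ucp1 line and 8 and 0 counts in the Myf5 line. In the Ucp1 line it was called higher without GFP-positive replicate 2 (log2 5.36, adjusted p = 0.0224 by edgeR) and stood at -5.84 without replicate 1. Its Myf5 value was -0.34 without GFP-positive replicate 2.

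GFP-negative myoepithelial cells against brown adipocytes of both lines compare the tissues without the GFP-positive myoepithelial libraries. All brown adipocytes were GFP-positive, so label and tissue cannot be told apart in this contrast. Here 5 members were called higher by edgeR, against 17.3% of the 16117 genes tested. The keratins were at least 5022-fold higher for Krt5, 8540-fold for Krt14, 6202-fold for Krt15 and 10572-fold for Krt17. Trp63 averaged 34.7 ± 21.2 CPM in GFP-negative myoepithelial cells and 0.403 ± 0.420 CPM in brown adipocytes (SD, n = 4 each), a log2 fold change of 6.34 (SE 0.844, adjusted p = 0.000742). Snai2 averaged 64.6 ± 13.3 CPM in GFP-negative myoepithelial cells and 18.4 ± 22.9 CPM in brown adipocytes (SD, n = 4 each), with a log2 value of 3.03 (SE 1.25, adjusted p = 0.0844 by edgeR). For Id4 the means were 20.4 ± 13.2 CPM in GFP-negative myoepithelial cells and 16.0 ± 17.9 CPM in brown adipocytes (SD, n = 4 each), with a log2 value of 1.41 (SE 1.17, adjusted p = 0.361 by edgeR). Snai2 was called higher by DESeq2 and in 3 of the fits that left out 1 library, so its side of the threshold was set by the choice of fit.

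GFP-negative myoepithelial cells of the Ucp1 line were next set against those of the Myf5 line. No gene was called by edgeR (0%), 604 genes (3.56%) had an unadjusted p under 0.05, DESeq2 called 43 genes, and none of the 7 was called under any setting. Krt15 lay lower in Ucp1 cells without overlap, with a log2 value of -1.78 (SE 0.677, adjusted p = 1 by edgeR). Krt17 and Snai2 were also lower without overlap, as were 17.8% of all genes, with log2 values of -1.34 (SE 0.852) and -0.42 (SE 1.80). Krt5 and Krt14 overlapped between the lines, at 328 ± 23.1 and 607 ± 27.5 CPM in the Ucp1 line and 418 ± 338 and 662 ± 239 CPM in the Myf5 line (SD, n = 2). The 2 Myf5 libraries of Krt5, at 179 and 657 CPM, lay on either side of both Ucp1 libraries.

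Brown adipocytes of the Ucp1 line and of the Myf5 line were compared after their values had been seen. Snai2 and Id4 stood out: Snai2 was at 49.6 and 21.6 CPM in Ucp1 brown adipocytes, against 0.977 and 1.47 CPM in Myf5 brown adipocytes. Id4 was at 38.1 and 22.8 CPM in Ucp1 brown adipocytes, against 0.610 and 2.29 CPM in Myf5 brown adipocytes. Neither gene's groups overlapped, but neither passed: the log2 value was 4.85 for Snai2 (SE 2.14, adjusted p = 0.380 by edgeR) and 4.37 for Id4 (SE 1.48, adjusted p = 0.219 by edgeR). Of all genes, 1.29% were called higher and 31.3% lay higher without overlap. DESeq2 called Id4, a fit of these 4 libraries alone called both genes, and a fit without the GFP-positive Ucp1 myoepithelial libraries called Snai2. Of the other Id genes, Id1 and Id3 were called higher in Ucp1 brown adipocytes. Id1 averaged 1008 ± 649 CPM in Ucp1 brown adipocytes and 64.3 ± 18.7 CPM in Myf5 brown adipocytes (SD, n = 2, adjusted p = 0.0260 by edgeR). Id3 averaged 1495 ± 890 CPM in Ucp1 brown adipocytes and 133 ± 9.01 CPM in Myf5 brown adipocytes (SD, n = 2, adjusted p = 0.0260 by edgeR). The same libraries differed in their cell markers: the 7 brown adipocyte markers (Ucp1, Cidea, Cox8b, Dio2, Ppargc1a, Adipoq and Plin1) summed to 2564 and 7914 CPM in Ucp1 brown adipocytes, against 20579 and 24100 CPM in Myf5 brown adipocytes. The 6 endothelial markers summed to 2948 and 1603 CPM in Ucp1 brown adipocytes, against 125 and 428 CPM in Myf5 brown adipocytes. In the same order of lines, the 5 pericyte markers summed to 538 and 346 CPM, against 102 and 105 CPM. The 6 immune markers summed to 147 and 36.8 CPM, against 2.93 and 9.90 CPM. The 7 fibroblast markers overlapped, at 56.6 and 43.5 CPM, against 108 and 54.2 CPM. The part of these differences in the values of Snai2, Id4, Id1 and Id3 was not tested.

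The wider programme of the basal layer was followed through gene lists in the label comparisons. Of 20 genes named as p63 targets, in adhesion, laminin and growth factor signalling, 17 lay below 0 in the Ucp1 line and 16 in the Myf5 line. Their median log2 value was -1.36 in the Ucp1 line, where all genes had a median of -0.69, and -2.70 in the Myf5 line, where all genes had one of -0.06. Of all genes, 64.5% lay below 0 in the Ucp1 line and 52.5% in the Myf5 line. In the Ucp1 line 5 of the 20 targets were called lower, where 14.3% of all genes were called, and in the Myf5 line 0. Of these, 3 are described. Pthlh, the gene of parathyroid hormone-related protein, was at 0 and 0.0728 CPM in GFP-positive Ucp1 cells, against 24.2 and 19.97 CPM in GFP-negative Ucp1 cells (adjusted p = 0.00830 by edgeR). Nrg1, a growth factor, was at least 224-fold lower, and Fermt1, an integrin activator, at least 186-fold lower, with 0 counts in both GFP-positive libraries (adjusted p = 0.0225 and 0.0236 by edgeR). The values of Nrg1 and Fermt1 are zeros, and those of Pthlh are at or near 0, in the libraries in which many genes were undetected. The part of that in the calls was not tested. Not all targets lay lower: Itga6, an integrin subunit of the basal membrane, was at 826 and 389 CPM in GFP-positive Ucp1 cells, against 411 and 357 CPM in GFP-negative Ucp1 cells, and was not called. Itga6 in the Myf5 line was at 55.4 and 111 CPM in GFP-positive cells, against 254 and 493 CPM in GFP-negative cells. Dst, a linker of keratin to hemidesmosomes, was at 940 and 397 CPM in GFP-positive Ucp1 cells, against 269 and 200 CPM in GFP-negative Ucp1 cells, and at 167 and 163 CPM in GFP-positive Myf5 cells, against 241 and 408 CPM in GFP-negative Myf5 cells. Neither line's value passed for either gene.

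The contractile genes, a further side of the myoepithelial programme, lay mostly lower in GFP-positive cells of both lines. All 17 lay below 0 in the Ucp1 line, 6 of them called lower, with a median of -2.15, against 64.5% below 0, 14.3% called and a median of -0.69 over all genes. Desmin (Des) was at 0 and 0 CPM in GFP-positive Ucp1 cells, against 71.3 and 104 CPM in GFP-negative Ucp1 cells (adjusted p = 0.00117 by edgeR). Myocd, a co-activator of smooth muscle genes, was at 0 and 0 CPM in GFP-positive Ucp1 cells, against 3.16 and 1.83 CPM in GFP-negative Ucp1 cells (adjusted p = 0.0450 by edgeR). Tagln, an actin-binding protein, was at 170 and 352 CPM in GFP-positive Ucp1 cells, against 1283 and 1628 CPM in GFP-negative Ucp1 cells (adjusted p = 0.0205 by edgeR). All 3 were thus lower, the first 2 to 0 counts. Mylk, the myosin light chain kinase, was at 99.2 and 185 CPM in GFP-positive Ucp1 cells, against 561 and 651 CPM in GFP-negative Ucp1 cells (adjusted p = 0.0451 by edgeR). Of the 17, 13 lay below 0 in the Myf5 line, where 52.5% of all genes did, 0 were called and the median was -0.95. In that line 7 lay lower without overlap and 2 higher, against 20.2% and 14.5% of all genes. The label effect differed between the lines for Des and Myocd (log2 difference -17.0 and -12.6, adjusted p = 0.00198 and 0.0317 by edgeR). Both differences, Ucp1 minus Myf5 effect, lay below 0, a call made for 10.7% of all genes. Their sizes rest on 0 counts in both GFP-positive Ucp1 libraries, in which many genes were undetected. The part of that in these calls was not tested, nor was the part of the fibroblast and pericyte markers given above.

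Among 16 other regulators of basal cells, none was called in either line, 9 lay below 0 in the Ucp1 line and 11 in the Myf5 line, where 64.5% and 52.5% of all genes did so, and the medians were -0.33 and -0.34 in the same order of lines. Wwtr1, a Hippo pathway co-activator, was at 430 and 418 CPM in GFP-positive Ucp1 cells, against 397 and 325 CPM in GFP-negative Ucp1 cells. Nfib, a transcription factor, was at 214 and 278 CPM in GFP-positive Ucp1 cells, against 204 and 192 CPM in GFP-negative Ucp1 cells. These 2 had the highest mean levels on the list. The 6 luminal keratins had medians of -2.66 in the Ucp1 line and -3.52 in the Myf5 line. In the Ucp1 line 2 of them, Krt7 and Krt23, were called lower, where 14.3% of all genes were called. For the Myf5 label 0 were called and all 6 lay lower without overlap, as did 20.2% of all genes. Krt7 was at 0 and 0.0243 CPM in GFP-positive Ucp1 cells, against 43.7 and 43.8 CPM in GFP-negative Ucp1 cells (adjusted p = 0.0267 by edgeR).

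Relatives of the 3 regulators were given their own lists. The 6 other Snail, Twist and Zeb genes, known from epithelial-to-mesenchymal transition, included 2 whose label effect differed between the lines. Both differences, Ucp1 minus Myf5 effect, lay below 0, a call made for 10.7% of all genes. Twist1 was at 0 and 0 CPM in GFP-positive Ucp1 cells, against 12.3 and 13.1 CPM in GFP-negative Ucp1 cells (at least 290-fold lower, adjusted p = 0.00134 by edgeR), and at 25.5 and 54.6 CPM in GFP-positive Myf5 cells, against 1.24 and 0.931 CPM in GFP-negative Myf5 cells, which was not called (adjusted p = 0.212 by edgeR). Zeb2 was at 0.0735 and 2.89 CPM in GFP-positive Ucp1 cells, against 47.0 and 23.8 CPM in GFP-negative Ucp1 cells, and at 123 and 100 CPM in GFP-positive Myf5 cells, against 3.91 and 10.4 CPM in GFP-negative Myf5 cells. The label effect differed between the lines for both genes, with an adjusted p of 0.00198 for Twist1 and 0.0155 for Zeb2 by edgeR. The fibroblast markers given above differed in the same directions as these 2 genes in the 2 lines, and their part in the result was not tested. For the Ucp1 label 14.3% of all genes were called. Twist1 stood at 0 in the libraries in which many genes were undetected, and the part of that was not tested either. Snai1, the nearest relative of Snai2, was at 4.85 and 10.6 CPM in GFP-positive Ucp1 cells, against 17.6 and 23.6 CPM in GFP-negative Ucp1 cells, and was not called. Of the p53 family, Trp53 was at 153 and 122 CPM in GFP-positive Ucp1 cells, against 61.3 and 62.2 CPM in GFP-negative Ucp1 cells (adjusted p = 0.0870 by edgeR), while Trp73 reached at most 2.55 CPM in any library. Id1, Id2 and Id3 were not called in either line, with log2 values of 0.09 to 0.43 in the Ucp1 line and -1.0 to 0.78 in the Myf5 line.

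**Figure D4:**
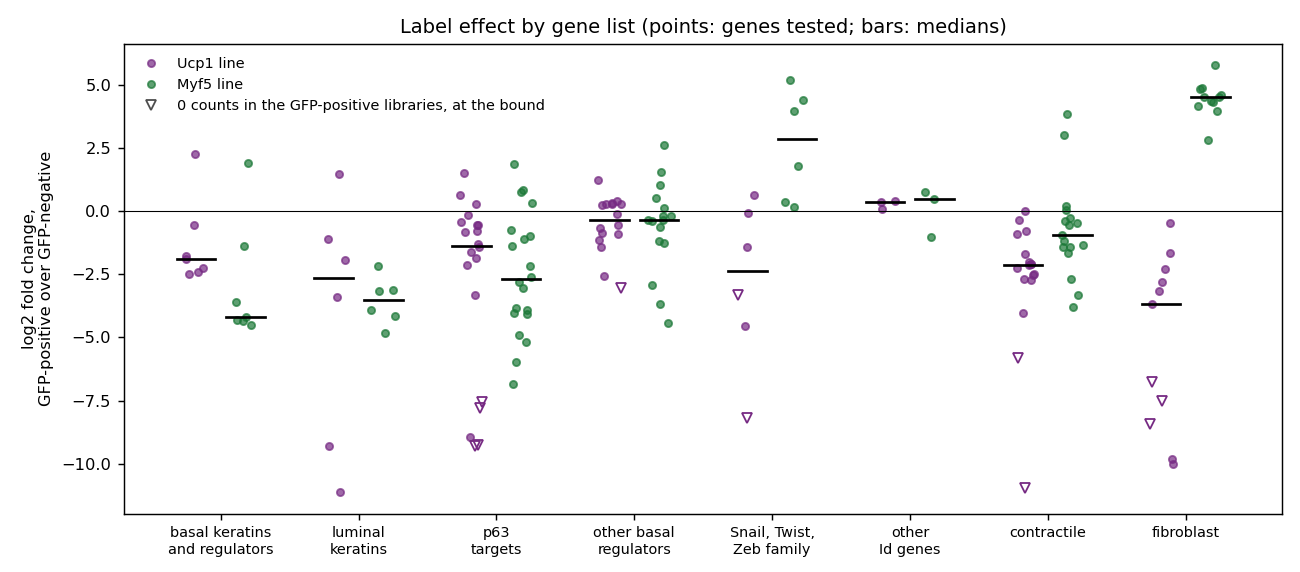
Log2 fold change between GFP-positive and GFP-negative myoepithelial cells for the genes of 8 lists in the Ucp1 line and the Myf5 line; each point is 1 gene, bars are medians, and open triangles are genes with 0 counts in both GFP-positive libraries, drawn at the bound given by 3 counts. The basal genes, luminal keratins and p63 targets lie mostly below 0 in both lines, while the 11 fibroblast genes have a median of -3.66 in the Ucp1 line and 4.53 in the Myf5 line.

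Likeness of pattern was measured by Pearson's r of log2(CPM + 1) over the 12 libraries, which share the tissue difference, and is given as a description. Krt5 and Krt14 followed each other most closely of the 21 pairs of members, with r = 0.990 over 12 libraries and 0.968 over the 8 myoepithelial libraries (Spearman's rho 1 in both). Krt17 and Trp63 had r = 0.962 over the 8 myoepithelial libraries (rho 0.952). Snai2 and Id4 had r = -0.693 over these 8 (rho -0.333), and Id4 was negative with each of the other 6 genes there, from -0.103 with Trp63. Snai2 had 0 counts in GFP-positive Ucp1 replicate 1, the library where Id4 was highest (180 CPM). The part of that library in r was not tested. The 3 genes nearest to Krt5 were Krt8, a luminal keratin (r = 0.986), Ahcy, an enzyme of the methionine cycle (r = 0.980), and Cnn1, a smooth muscle calponin (r = 0.979). Those of Krt14 were Krt8 (r = 0.993), Sfn, an epithelial 14-3-3 protein (r = 0.974), and Atp2c2, a calcium pump of the secretory pathway (r = 0.973). Those of Krt15 were Actg2, a smooth muscle actin (r = 0.988), Pcbd1, a pterin-cofactor enzyme (r = 0.984), and Perp, a desmosomal protein (r = 0.982). Those of Krt17 were Sfn (r = 0.983), Cnn1 (r = 0.980) and Folr1, a folate receptor (r = 0.978). For Trp63 they were Lgals7, an epithelial galectin (r = 0.967), Lama3, a laminin chain (r = 0.962), and Sox10, a transcription factor (r = 0.954). Those of Snai2 were Sp110 (r = 0.973), Pgm2l1 (r = 0.966) and Kctd12b (r = 0.961), and those of Id4 were Psip1 (r = 0.960), Junb, an AP-1 subunit (r = 0.954), and Rock2, a kinase acting on actomyosin (r = 0.936). No keratin or contractile gene was among the 3 nearest to Snai2 or Id4.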

How the data were processed

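Sorted-cell RNA was extracted (RNeasy Micro), copied and amplified by SMART-Seq v4 and read on an Illumina HiSeq, per the labels' protocols. The authors deposited raw read counts per gene, and the submitters' processing notes name TopHat, HTSeq, DESeq2 and mm10. Their versions, the strand setting and the handling of multiply mapped reads: not given in the sources used here. Symbols and exon lengths came from GENCODE M21, which named 37607 of 38924 genes.

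Levels are CPM scaled by TMM factors, and RPKM are these over exon length. Tests were edgeR 4.0.16 quasi-likelihood tests (R 4.3.3) on all 12 libraries with a mean per group, filterByExpr with a minimum count of 10 and Benjamini-Hochberg adjustment at 0.05. Pooled comparisons used 8 libraries with the line as covariate. The scripts were tested on simulated data. A gene at 0 lies under 0.0910 to 0.272 CPM per library, the value of 3 counts over the raw total before TMM scaling, which covers counting error only. On the TMM scale of the levels this floor is higher in brown adipocytes, with factors of 0.660 to 0.938. It is lower in the myoepithelial libraries, with factors of 1.02 to 1.25. Alternatives were RLE scaling, no filter, DESeq2 1.42.0, limma-voom 3.58.1, milk and mitochondrial genes left out, a replicate block, other library sets and each library left out. Whether replicates are different animals is not stated, and the p-values reflect just the scatter of these samples. From each list, the text names up to 4 called genes, ranked by adjusted p, or else the 2 with the highest mean level, and any keratin or relative of the regulators. A p63 target that this rule admits is not reported here, and lists given only as markers name their genes without single values. Likeness is given for the 3 nearest genes. The members and lists were chosen with earlier results of these data known. Tables and figures used Python 3.11.15 with pandas 2.3.3, numpy 2.4.6 and matplotlib 3.10.9.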

Additional observations from a re-analysis of the deposited data

How the results depend on the processing

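Of 798 member values computed under alternatives, 711 kept their sign and their side of the threshold. The number of members called moved as follows. DESeq2 called 4 for the Myf5 label, 1 for the Ucp1 label, 4 with both labels pooled and 1 in brown adipocytes of the Ucp1 over the Myf5 line. Limma-voom called 4 for the Ucp1 label, 3 for the Myf5 label and 2 pooled. With only the groups compared in the fit, 1 member was called for the Ucp1 label, 0 in Ucp1 myoepithelial cells against brown adipocytes and 2 in brown adipocytes of the 2 lines. The 12-library fit called 4 pooled. Without the GFP-positive Ucp1 libraries, 2 were called for the Myf5 label and 1 in brown adipocytes. Leaving out 1 library gave 0 to 2 members for the Ucp1 label, 0 to 1 for the difference of the labels, 3 to 5 in Myf5 myoepithelial cells against brown adipocytes and 4 to 6 in the Ucp1 line. Without GFP-positive Ucp1 replicate 2, Snai2 reversed to -11.78 in the difference (1.81 without replicate 1) and to -12.50 against brown adipocytes (1.08 without replicate 1), since the remaining library held 0 counts. With a replicate block, 1 member was called for the Ucp1 label (Krt15, adjusted p = 0.0394), and Id4 was no longer called in Myf5 myoepithelial cells against brown adipocytes (adjusted p = 0.0521). The deviations of same-numbered libraries correlated at 0.472 between GFP-positive and GFP-negative Myf5 myoepithelial cells. The value was 0.0686 between GFP-positive and GFP-negative Ucp1 myoepithelial cells, and -0.109 to 0.114 between all other groups. The labels do not state pairing, so whether the Myf5 libraries are paired cannot be told. Genes called for the Ucp1 label numbered 2423, and 1293 to 5146 under the alternatives, those for the Myf5 label 0, against 724 by DESeq2, 567 by limma-voom and 232 without the GFP-positive Ucp1 libraries, and those pooled 0, against 905, 123 and, in the 12-library fit, 1956. For the difference the count was 1861, and 949 to 3740 under the alternatives. In Myf5 myoepithelial cells against brown adipocytes it was 3350, and 1163 to 6199; in the Ucp1 line 4717, and 0 to 6424; in brown adipocytes of the 2 lines 223, and 0 to 1486. For GFP-negative cells of the 2 lines it was 0, against 43 by DESeq2. The lowest keratin count in myoepithelial cells was 64, while Trp63 rests on 6 counts in GFP-positive Myf5 replicate 1 and on 0 in GFP-positive Ucp1 replicate 2, the deepest library. The causes of these shifts were not tested.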
